A study of Arabidopsis thaliana with 16 samples.

Results

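The zed1-D mutant was compared with wild type (WT) after 48 h in warmth. The comparison held 4 of the 16 RNA-seq samples of the series, namely 2 libraries of zed1-D and 2 libraries of WT, chosen by their labelled genotype and time and numbered replicate 1 and replicate 2 in each group. Both groups were Arabidopsis thaliana of the ecotype Columbia-0, grown at 18 °C under 16 h of light and 8 h of darkness until the main stem had bolted to between 0.5 and 1.0 cm, and then kept at 28 °C for 48 h. WT carried no mutant allele named in the labels and zed1-D carried the ZED1 allele of that name, whose sequence change the labels do not give. Other groups of the series were sampled at 0, 3 and 12 h after the move. The tissue was the inflorescence with its young leaves, taken whole, so fewer cells of a type and less RNA per cell cannot be told apart in any value given here. The labels do not say whether the 2 replicates were separate plantings. Unless said otherwise, the p-values measure the spread left over all 16 libraries once the shift shared by same-numbered libraries is removed. That spread may be technical.

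ZED1 encodes a pseudokinase, a protein with a kinase fold that lacks catalytic activity, which works with the intracellular immune receptor ZAR1. ZAR1 and its kinase partners detect bacterial effector proteins that modify a host kinase and then switch on defence. Such receptors signal in part through salicylic acid, a hormone made from isochorismate, whose receptors turn on pathogenesis-related (PR) genes. Jasmonate, a lipid-derived hormone, controls a further set of defence and wound genes and often acts against salicylic acid. Plants with defence switched on commonly grow poorly, and warmth is known to dampen immunity in many plants.

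At 48 h the 4 libraries held between 5.15 M and 11.1 M counted reads (M, 10 to the power of 6), with replicate 1 the shallower in both genotypes. A count model (edgeR's quasi-likelihood test) was fitted to the 19312 genes with enough reads, over all 16 libraries and with the replicate number as a block, and p-values were adjusted over all of these genes. Levels are given in CPM, the reads of a gene per M reads of the library, with the library size scaled by edgeR's TMM factor. Replicate 1 is given first. Differences are given as log2 fold changes of zed1-D against WT. The SE given with each is the absolute log2 fold change divided by the square root of its test's F statistic. For genes with few reads in a group, this SE can be smaller than the counting error. At an adjusted p under 0.05, 4265 genes (22.1%) were higher in zed1-D and 4542 (23.5%) were lower, so that 45.6% of genes passed. Without the block 1607 genes (8.32%) were higher and 1205 (6.24%) lower, and all 2812 of them were also called with the block. At the largest sizes the increases outnumbered the decreases: 306 genes were higher by a log2 fold change of at least 3, and 36 were lower by as much. The median log2 fold change over all genes tested was -0.025. The 2 replicate pairs gave the same sign for 97.9% of the called genes, and for 80.5% of the called genes the 2 groups did not overlap, against 50.1% of all genes tested. Each gene list below is to be read against these shares of all genes. Leaving out WT replicate 2 had the largest effect of the 4 libraries on these counts and left 2841 genes higher and 3041 lower.

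**Figure D1:**
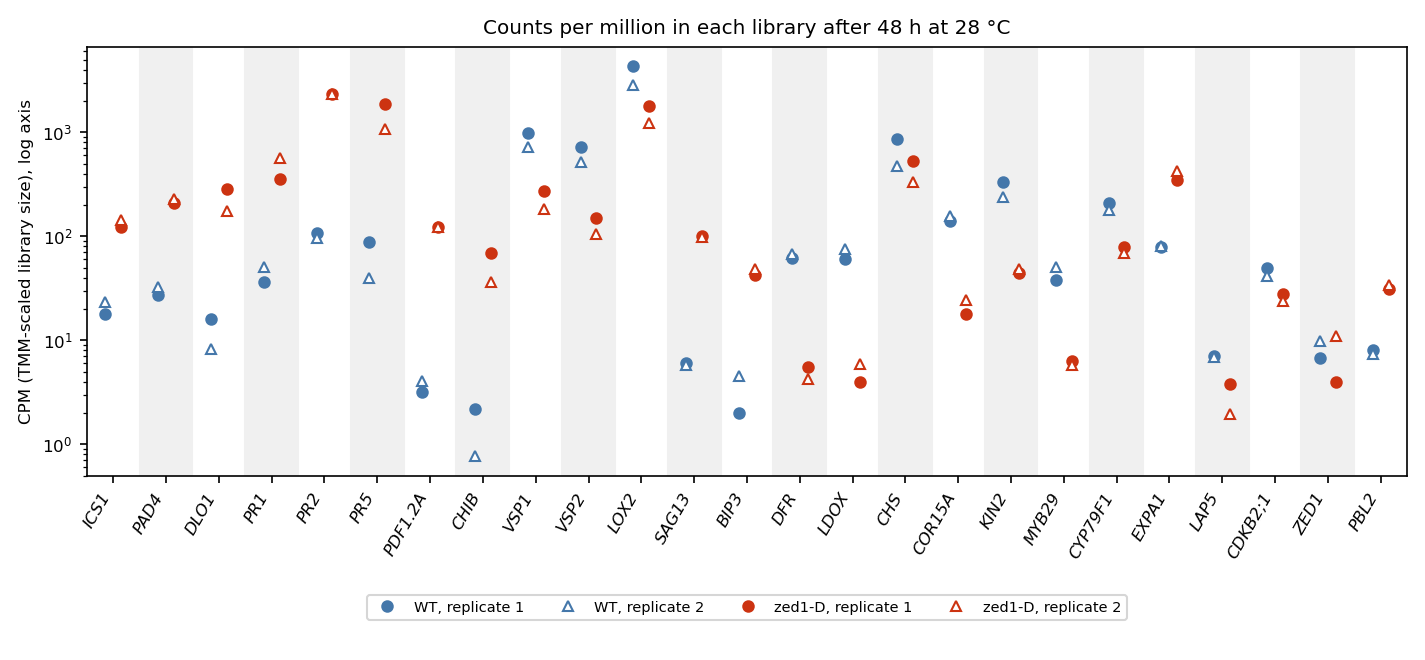
CPM (per TMM-scaled library size, log axis) of 25 genes in each of the 4 libraries after 48 h at 28 °C; circles are replicate 1 and triangles replicate 2, blue WT and red zed1-D. The genotypes do not overlap for any gene drawn except ZED1 and CHS; PR2 lies at 109 and 95.3 CPM in WT and 2358 and 2312 CPM in zed1-D, and DFR at 61.3 and 67.8 CPM in WT and 5.5 and 4.25 CPM in zed1-D.

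Of the 6 genes of the ZAR1 complex and its partners 2 were higher and none was lower, with 1 higher without the block. This share of 33.3% was below the 45.6% of all genes called. ZED1 was at 6.79 and 9.95 CPM in WT and 3.99 and 10.9 CPM in zed1-D, with a log2 fold change of -0.074 ± 0.20 SE, adjusted p = 0.79. The genotypes overlapped, and the counts do not distinguish the mutant from the normal transcript, so they do not check the labels. ZAR1, the receptor that ZED1 partners, was at 101 and 114 CPM in WT and 136 and 114 CPM in zed1-D and did not pass (0.20 ± 0.099 SE, adjusted p = 0.092), while without zed1-D replicate 2 its log2 fold change of 0.47 passed (adjusted p = 3.6e-05). PBL2, the cytoplasmic kinase that serves as bait in a ZAR1 complex, was at 7.99 and 7.31 CPM in WT and 31.3 and 33.8 CPM in zed1-D, a log2 fold change of 2.13 ± 0.14 SE, adjusted p = 8.1e-15. Both zed1-D libraries were about 4 times as high as both WT libraries for PBL2. SNC1, a receptor gene whose over-activity is known to cause warmth-sensitive autoimmunity, was at 123 and 134 CPM in WT and 168 and 153 CPM in zed1-D (0.31 ± 0.084 SE, adjusted p = 0.0023). The SNC1 call was lost without the block (adjusted p = 0.17) and without zed1-D replicate 1 (adjusted p = 0.052). Of 17 further intracellular immune receptors, 8 were higher, 0 were lower and 9 did not pass, with a median log2 fold change of 0.33. This share of 47.1% stood against 45.6% of all genes called and 22.1% higher. Without the block 5 were higher. The ADR1 helper receptors, which pass on signals from other receptors, were among the 4 with the largest differences. ADR1-L1 was at 70.9 and 62.5 CPM in WT and 201 and 178 CPM in zed1-D (1.51 ± 0.079 SE, adjusted p = 1e-17), ADR1 had a log2 fold change of 1.42 ± 0.12 and ADR1-L2 of 1.09 ± 0.097.

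Genes for making and regulating salicylic acid were higher in zed1-D almost throughout. Of these, 16 of 17 tested were higher and none was lower, with a median log2 fold change of 2.43, and 13 passed without the block. Among the enzymes and carriers, ICS1, which makes isochorismate in the plastid, was at 18.0 and 23.1 CPM in WT and 122 and 145 CPM in zed1-D (2.69 ± 0.095 SE, adjusted p = 7.8e-23). EDS5, which exports isochorismate, was at 12.8 and 10.7 CPM in WT and 75.9 and 59.1 CPM in zed1-D (2.52 ± 0.12 SE, adjusted p = 1.5e-18). PBS3, which joins isochorismate to glutamate, was at 8.79 and 13.3 CPM in WT and 109.7 and 95.3 CPM in zed1-D (3.12 ± 0.13 SE, adjusted p = 4e-21). The exception was EPS1, which helps release salicylic acid from that conjugate and was at 13.0 and 11.0 CPM in WT and 10.8 and 9.12 CPM in zed1-D (-0.26 ± 0.17 SE, adjusted p = 0.22). The 2 transcription factors that turn on ICS1 were about 8 to 10 times as high in zed1-D. CBP60G was at 7.39 and 8.16 CPM in WT and 74.2 and 82.5 CPM in zed1-D (3.33 ± 0.12 SE, adjusted p = 2.7e-22). SARD1 was at 13.0 and 19.2 CPM in WT and 123 and 136 CPM in zed1-D (2.96 ± 0.11 SE, adjusted p = 1.1e-22). Of the lipase-like signalling partners, PAD4 had a log2 fold change of 2.86 ± 0.091, EDS1 of 1.76 ± 0.13 and SAG101 of 1.55 ± 0.13, and the receptors NPR1 and NPR3 differed less, by 0.66 ± 0.096 and 0.97 ± 0.11. The enzymes that hydroxylate and so remove salicylic acid were also higher. DLO1 was at 16.2 and 8.16 CPM in WT and 283 and 177 CPM in zed1-D, the largest difference of the list (4.29 ± 0.11 SE, adjusted p = 4.8e-27). DMR6 was at 113 and 90.1 CPM in WT and 704 and 633 CPM in zed1-D (2.73 ± 0.083 SE, adjusted p = 1.2e-24).

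Among genes that salicylic acid turns on, 13 of 15 were higher and 1 was lower, with a median log2 fold change of 2.65. PR2, a glucanase, was at 109 and 95.3 CPM in WT and 2358 and 2312 CPM in zed1-D, a log2 fold change of 4.53 ± 0.084 SE, adjusted p = 1.6e-30. PR5, a thaumatin-like protein, was at 88.7 and 40.0 CPM in WT and 1889 and 1067 CPM in zed1-D (4.58 ± 0.098 SE, adjusted p = 6.6e-29). PR1, the most used marker of the response, was at 36.4 and 51.2 CPM in WT and 354 and 569 CPM in zed1-D (3.40 ± 0.086 SE, adjusted p = 6.8e-27). For all 3 genes the lower zed1-D library stood several times above the higher WT library. RLP23, which detects peptides of microbial origin, was at 59.7 and 40.3 CPM in WT and 667 and 475 CPM in zed1-D (3.52 ± 0.086 SE, adjusted p = 3.5e-27). N-hydroxypipecolic acid, the mobile signal of systemic resistance, had 3 genes tested. FMO1, which makes it, was at 0.599 and 0.595 CPM in WT and 6.45 and 6.02 CPM in zed1-D (3.35 ± 0.33 SE, adjusted p = 1.9e-10). UGT76B1, which attaches glucose to it, was at 2.4 and 2.72 CPM in WT and 14.2 and 14.3 CPM in zed1-D (2.44 ± 0.20 SE, adjusted p = 2e-12). ALD1, the first enzyme of the pathway, was at 1.4 and 1.11 CPM in WT and 1.33 and 0.797 CPM in zed1-D and did not pass (-0.30 ± 0.47 SE, adjusted p = 0.63). At 12 h it had been at 10.8 and 10.8 CPM in WT and 34.9 and 33.0 CPM in zed1-D. The median log2 fold change of the 3 genes was 1.93 at 0 h and 2.44 at 48 h. In a test of the change from 0 to 48 h, none of them had a higher difference and 1 had a lower one. Without the block none had a lower one.

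**Figure D2:**
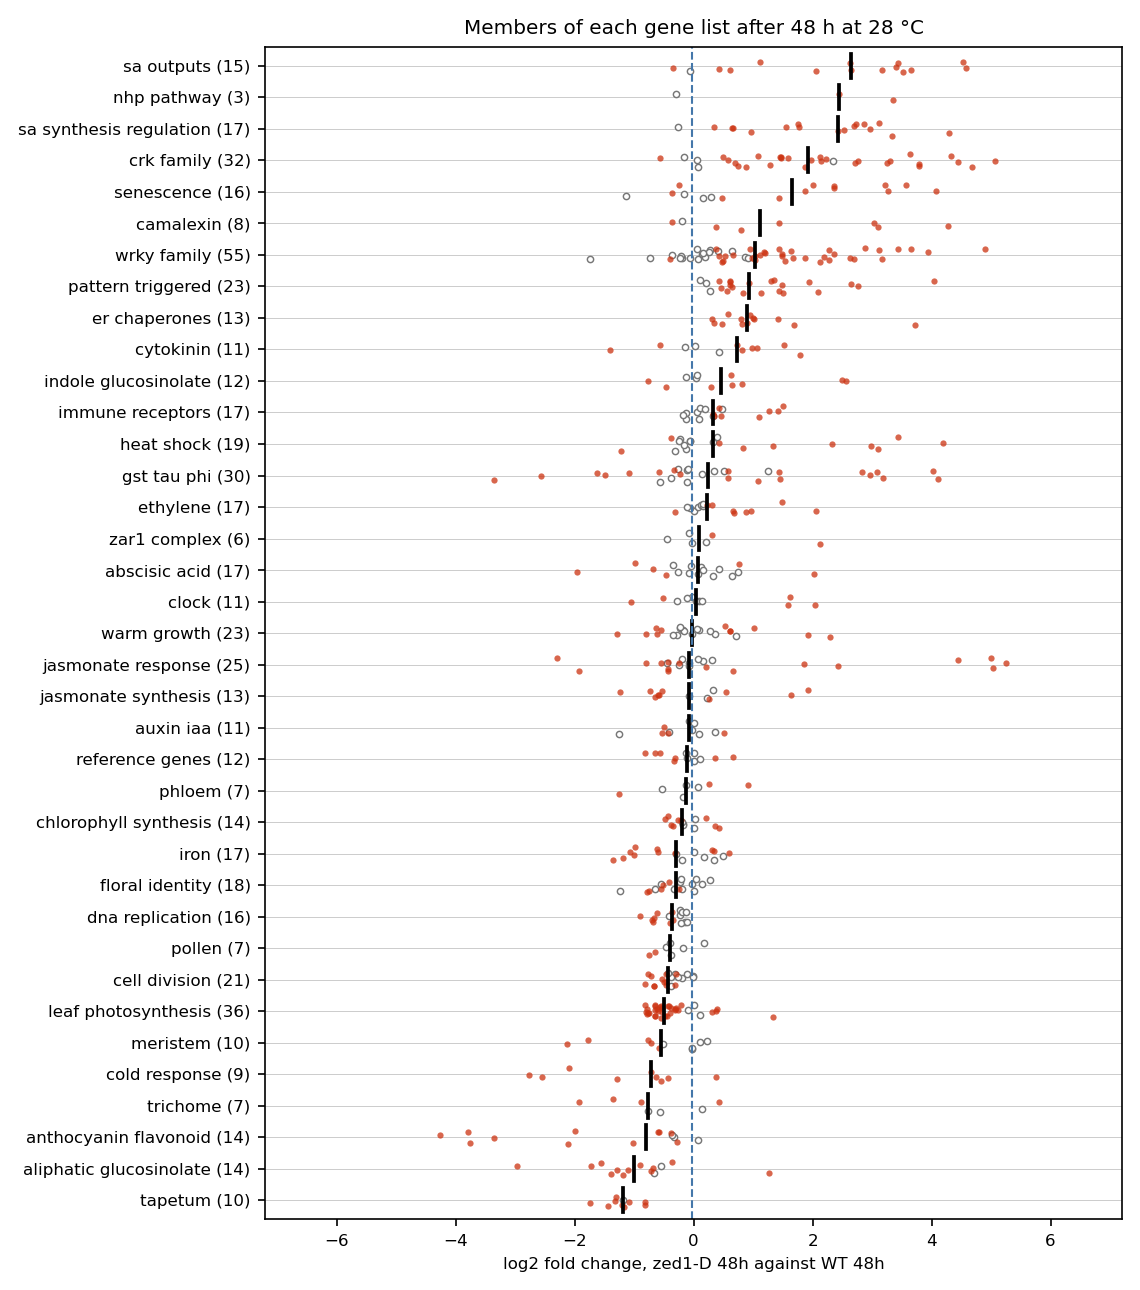
Log2 fold change of zed1-D against WT after 48 h for every tested member of the gene lists (number tested in brackets); filled red points passed the adjusted p of 0.05, open points did not, the black bar is the list median and the dashed line the median of all genes tested. The lists of salicylic acid and N-hydroxypipecolic acid genes lie highest and the tapetum list lowest; 6 members with no read in one of the groups are not drawn.

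Most genes of surface receptors and their signalling kinases were higher. Of 23 genes of pattern-triggered immunity, the response to microbial molecules at the cell surface, 20 were higher and none was lower (median log2 fold change 0.93), and 15 passed without the block. SOBIR1, a co-receptor of receptor-like proteins, was at 126 and 108 CPM in WT and 841 and 635 CPM in zed1-D (2.64 ± 0.077 SE, adjusted p = 3.1e-25). BIR1 had a log2 fold change of 1.35 ± 0.084, LYK5, a chitin receptor, of 2.09 ± 0.10 and the kinase MPK3 of 1.5 ± 0.078. Of 32 cysteine-rich receptor-like kinases, 27 were higher and 1 was lower, with a median of 1.92. CRK6 was at 21.4 and 17.4 CPM in WT and 282 and 207 CPM in zed1-D (3.63 ± 0.096 SE, adjusted p = 2e-26). CRK7 was at 7.39 and 3.91 CPM in WT and 79.0 and 64.6 CPM in zed1-D (3.79 ± 0.14 SE, adjusted p = 6.1e-22). These kinases lie in clusters of similar genes, among which the counting could have split reads. Of 55 WRKY transcription factors, 35 were higher and 1 was lower (median 1.03). WRKY46 was at 4.2 and 6.97 CPM in WT and 66.6 and 63.0 CPM in zed1-D (3.44 ± 0.15 SE, adjusted p = 3.1e-20), WRKY51 had a log2 fold change of 3.94 ± 0.20, 3.26 without WT replicate 2, and WRKY33 of 1.43 ± 0.10.

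Genes of camalexin, an antimicrobial compound, were higher at the later steps of its synthesis and differed little at the first. In all, 6 of 8 were higher and 1 was lower, and 4 were higher without the block. The median log2 fold change of the list was 1.08 at 0 h, 2.67 at 12 h and 1.12 at 48 h. In a test of the change from 0 to 48 h, 4 genes had a higher difference and 2 a lower one. Without the block these were 2 and 0. The first enzymes, CYP79B2 and CYP79B3, which turn tryptophan into indole-3-acetaldoxime, differed by 0.38 ± 0.085 and -0.36 ± 0.092 on the log2 scale. Without the block neither passed (adjusted p = 0.33 and 0.13). CYP79B3 did not pass without WT replicate 1 either (adjusted p = 0.080). CYP71A12, which acts next, was at 0.599 and 1.62 CPM in WT and 19.2 and 28.7 CPM in zed1-D (4.28 ± 0.22 SE, adjusted p = 8.1e-18). Its close relative CYP71A13 was at 10.6 and 9.18 CPM in WT and 12.0 and 19.5 CPM in zed1-D (0.79 ± 0.16 SE, adjusted p = 9.7e-05), a call lost without the block (adjusted p = 0.14), without WT replicate 2 (0.20) and without zed1-D replicate 2 (0.059). PAD3, the last enzyme, was at 4.4 and 2.55 CPM in WT and 24.7 and 28.1 CPM in zed1-D (3.10 ± 0.18 SE, adjusted p = 1.1e-16). Without WT replicate 2 its log2 fold change was 2.48, and that of CYP71A12 was 5.05. The transporter gene PDR12 was at 4.79 and 3.57 CPM in WT and 42.9 and 26.8 CPM in zed1-D (3.03 ± 0.17 SE, adjusted p = 5e-17).

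Glucosinolates, the sulfur-rich deterrents of the cabbage family, split by type. Of 14 genes for the aliphatic type, made from methionine, 11 were lower and 1 was higher, with a median log2 fold change of -1.01; 8 were lower without the block. Of the 2 main regulators, MYB29 was at 38.4 and 51.1 CPM in WT and 6.26 and 5.76 CPM in zed1-D (-2.97 ± 0.14 SE, adjusted p = 4.7e-19). MYB28 was at 99.9 and 109 CPM in WT and 52.4 and 46.1 CPM in zed1-D (-1.11 ± 0.098 SE, adjusted p = 1.3e-11). The chain-lengthening genes BCAT4 and MAM1 had log2 fold changes of -1.56 ± 0.082 and -1.19 ± 0.079. CYP79F1, which opens the core pathway, was at 207 and 181 CPM in WT and 78.2 and 69.3 CPM in zed1-D (-1.39 ± 0.08 SE, adjusted p = 1e-16), whereas its neighbour CYP79F2, at 1.4 and 1.96 CPM in WT and 4.93 and 3.99 CPM in zed1-D, was the one member that was higher (1.26 ± 0.33 SE, adjusted p = 0.0019). The 2 genes are close copies. Of 12 genes for the indole type, made from tryptophan, 7 were higher and 2 were lower, with a median of 0.46 (5 higher and 1 lower without the block). Its regulators moved in opposite directions. MYB51 was at 4.2 and 7.06 CPM in WT and 32.6 and 34.8 CPM in zed1-D (2.49 ± 0.17 SE, adjusted p = 1.9e-14), while MYB34 had a log2 fold change of -0.77 ± 0.14. CYP81F2, which modifies indole glucosinolates for defence, had a log2 fold change of 2.56 ± 0.48.

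Jasmonate genes moved in both directions. In the list of response genes, 9 of 25 were higher, 8 were lower and 8 did not pass, with a median of -0.07; without the block 8 were higher and 5 lower. The branch shared with ethylene runs through the factor ORA59 to defensins and chitinases, whose promoters are known to carry the GCC box bound by such factors. The 250 bases before the annotated start of PDF1.2A and of ORA59 are shown to let the box be seen in 2 genes that were higher together. They were read 5′ to 3′ from RefSeq assembly TAIR10.1, PDF1.2A from chr5:17907639-17907888 on the minus strand and ORA59 from chr1:1882657-1882906 on the plus strand, with each match to GCCGCC on either strand in capitals.
PDF1.2A promoter: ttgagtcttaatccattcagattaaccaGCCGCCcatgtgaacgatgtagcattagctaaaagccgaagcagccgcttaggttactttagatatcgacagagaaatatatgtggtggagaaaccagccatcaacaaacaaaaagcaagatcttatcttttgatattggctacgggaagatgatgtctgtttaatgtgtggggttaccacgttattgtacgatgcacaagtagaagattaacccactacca
ORA59 promoter: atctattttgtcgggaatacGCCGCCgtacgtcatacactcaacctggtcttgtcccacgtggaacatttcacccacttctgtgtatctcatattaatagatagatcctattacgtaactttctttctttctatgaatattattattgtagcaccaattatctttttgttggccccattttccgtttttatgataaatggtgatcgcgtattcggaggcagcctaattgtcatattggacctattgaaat
Each window held 1 match, beginning at position -222 of PDF1.2A and -230 of ORA59, counted back from the start. Over the window from 250 bases before to 50 after the start, which was searched on both strands, 2.62% of 19097 promoters held the box, as did 3.59% of the 1394 promoters of genes higher by a log2 fold change of at least 1 and 0.779% of the 899 promoters of genes lower by as much. Of the response genes, 3 of 25 held it. None of the motifs searched contains another.

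In that branch, PDF1.2A, a defensin, was at 3.2 and 4.08 CPM in WT and 122 and 123 CPM in zed1-D (4.99 ± 0.15 SE, adjusted p = 1.2e-24). Its near-identical copy PDF1.2B had no read in either WT library and 238 reads over the 2 zed1-D libraries, which made it at least 80.3-fold higher, against a floor of 3 reads over the group. Reads could have been split between the copies. CHIB, a basic chitinase, was at 2.2 and 0.765 CPM in WT and 69.3 and 36.5 CPM in zed1-D (5.26 ± 0.21 SE, adjusted p = 4.4e-21). PR4 was at 5.39 and 5.61 CPM in WT and 183 and 186 CPM in zed1-D (5.04 ± 0.13 SE, adjusted p = 8.2e-27). ORA59 itself was at 0.599 and 0.935 CPM in WT and 10.8 and 22.1 CPM in zed1-D (4.44 ± 0.29 SE, adjusted p = 6.2e-15). For each of these genes both zed1-D libraries stood at least 10 times above both WT libraries. In the branch that runs through MYC2 the marker genes VSP2 and VSP1 were lower. VSP2, a storage protein gene used as its marker, was at 725 and 522 CPM in WT and 149 and 105 CPM in zed1-D (-2.30 ± 0.079 SE, adjusted p = 3.3e-23), and its near copy VSP1 was at 985 and 723 CPM in WT and 275 and 182 CPM in zed1-D (-1.92 ± 0.077 SE, adjusted p = 3.2e-21). MYC2 differed by -0.43 ± 0.081, which did not pass without the block (adjusted p = 0.22). The repressors of the pathway were not of one direction. JAZ9 differed by -0.43 ± 0.079, JAZ1 by 0.66 ± 0.11 and JAZ10, at 8.99 and 7.48 CPM in WT and 9.3 and 8.77 CPM in zed1-D, did not pass (0.16 ± 0.18 SE, adjusted p = 0.51). TAT3, a tyrosine aminotransferase induced by jasmonate, was higher, at 89.9 and 65.2 CPM in WT and 448 and 371 CPM in zed1-D (2.42 ± 0.09 SE, adjusted p = 3.5e-22). ORA59, MYC2 and the JAZ genes were named after their values were seen.

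Of 13 genes for making and turning over jasmonate, 4 were higher and 6 were lower, and 2 and 3 without the block. Those lower encode enzymes of synthesis. LOX2, the plastid lipoxygenase that starts it, was at 4289.6 and 2867 CPM in WT and 1803 and 1217 CPM in zed1-D (-1.24 ± 0.076 SE, adjusted p = 6.8e-16). AOS had a log2 fold change of -0.60 ± 0.095, AOC2 of -0.73 ± 0.079 and OPR3, the reductase of the peroxisome, of -0.58 ± 0.095. AOS and AOC2 did not pass without the block (adjusted p = 0.11 and 0.053). AOC3 was the synthesis gene that went the other way, at 14.4 and 12.4 CPM in WT and 50.7 and 49.2 CPM in zed1-D (1.93 ± 0.13 SE, adjusted p = 5.4e-15). CYP94C1, which oxidises and so inactivates the active hormone, had a log2 fold change of 1.64 ± 0.29. The genotype difference had moved since 12 h. In a test of the difference between the 2 times, 16 of 25 response genes and 11 of 13 synthesis genes had a lower value at 48 h than at 12 h, against 11.4% of all genes, and 3 response genes had a higher one, against 7.21%. Without the block 11 response and 4 synthesis genes had a lower value. At 12 h VSP2 had been at 442 and 339 CPM in WT and 558 and 386 CPM in zed1-D and LOX2 at 3690.2 and 2761 CPM in WT and 5027 and 3243 CPM in zed1-D. TAT3 had been at 1484 and 1125 CPM in zed1-D at 12 h, above its 48 h level. PR4, at 46.6 and 42.0 CPM in zed1-D at 12 h, went on to a higher level at 48 h, and its difference was larger by 2.61 ± 0.22 SE, adjusted p = 1.9e-11.

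**Figure D3:**
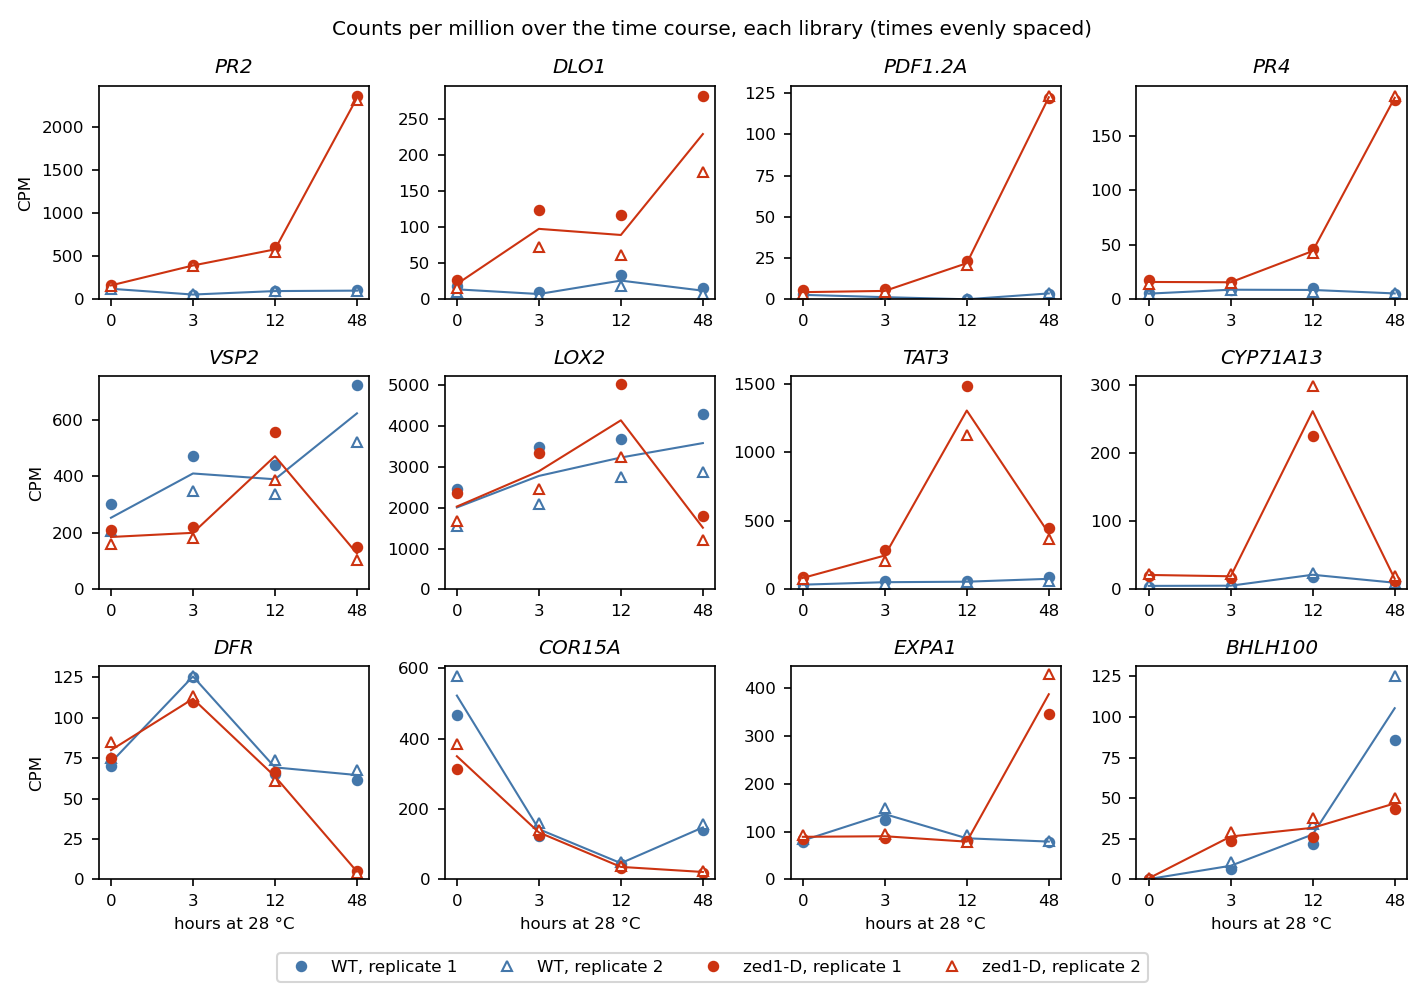
CPM of 12 genes in each library at 0, 3, 12 and 48 h after the move to 28 °C (times evenly spaced, each panel with its own axis from 0); circles are replicate 1, triangles replicate 2 and lines join group means, blue WT and red zed1-D. PR2, PDF1.2A, PR4 and EXPA1 reach their highest zed1-D level at 48 h, TAT3 and CYP71A13 at 12 h, and DFR and COR15A their lowest at 48 h.

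Genes of protein folding in the endoplasmic reticulum, the entry to secretion, were higher without exception in the list. Here 13 of 13 were higher, with a median log2 fold change of 0.89, and 7 passed without the block. BIP3, the inducible binding protein, was at 2.0 and 4.51 CPM in WT and 42.9 and 48.7 CPM in zed1-D (3.73 ± 0.20 SE, adjusted p = 2.3e-17). CRT3, a calreticulin needed to fold a surface immune receptor, was at 138 and 179 CPM in WT and 470.3 and 546 CPM in zed1-D (1.69 ± 0.079 SE, adjusted p = 3.1e-19). PDIL1-2, a disulfide isomerase, had a log2 fold change of 1.43 ± 0.079. CNX1, a calnexin of high level, was at 631 and 635 CPM in WT and 1093 and 1131 CPM in zed1-D (0.81 ± 0.07 SE, adjusted p = 5.8e-12). The summed level of the list was 3199 and 3561 CPM in the WT libraries and 5926 and 6055 CPM in the zed1-D libraries. Of 19 genes of the cytosolic heat shock response, 8 were higher and 2 were lower, a share of 52.6% against 45.6% of all genes. The calls of the list were mostly higher, while over all genes 22.1% were higher and 23.5% lower. Without the block 7 were higher and none was lower. HSP18.2, a small heat shock protein, was at 2.0 and 5.44 CPM in WT and 13.1 and 25.4 CPM in zed1-D (2.33 ± 0.19 SE, adjusted p = 2.5e-12).

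Of 16 senescence genes, 10 were higher and 2 were lower, with a median of 1.65. Without the block 8 were higher and 0 were lower. SAG13 was at 5.99 and 5.78 CPM in WT and 101 and 98.0 CPM in zed1-D (4.08 ± 0.14 SE, adjusted p = 7e-23). SAG21 was at 15.4 and 11.3 CPM in WT and 143 and 158 CPM in zed1-D (3.57 ± 0.12 SE, adjusted p = 1.4e-23). SAG14 had a log2 fold change of 3.21 ± 0.12. SAG13 and SAG21 are known to respond to pathogens and oxidative stress as well as to age. SAG12, the protease gene of late leaf senescence, named after its value was seen, was at 1.4 and 2.13 CPM in WT and 0.759 and 0.886 CPM in zed1-D and did not pass (-1.14 ± 0.49 SE, adjusted p = 0.054). Without zed1-D replicate 1 it passed (-1.33, adjusted p = 0.043), and without zed1-D replicate 2 its log2 fold change was -0.54.

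The late steps of anthocyanin synthesis were among the largest decreases. Of 14 genes for flavonoids and anthocyanins, 11 were lower and none was higher (median -0.81), and 6 were lower without the block. DFR, the first enzyme committed to anthocyanin, was at 61.3 and 67.8 CPM in WT and 5.5 and 4.25 CPM in zed1-D (-3.80 ± 0.14 SE, adjusted p = 3.3e-22). LDOX, which follows it, was at 60.9 and 76.0 CPM in WT and 3.99 and 5.93 CPM in zed1-D (-3.76 ± 0.13 SE, adjusted p = 3.3e-23). Outside the list, UF3GT and AT5MAT, which decorate the pigment with sugar and malonate, had log2 fold changes of -3.83 ± 0.21 and -4.78 ± 0.23, and TT19 of the list, needed to bring the pigment to the vacuole, had one of -3.35 ± 0.17. The regulator TT8 was at 5.19 and 6.46 CPM in WT and 0.19 and 0.354 CPM in zed1-D, 102 reads over WT against 5 over zed1-D, a ratio of 20.2 with a 95% counting interval from 8.36 to 63.4. CHS, which opens the whole flavonoid pathway and was named after its value was seen, was at 853 and 469 CPM in WT and 527 and 335 CPM in zed1-D. Its log2 fold change of -0.59 ± 0.079 was smaller, and it did not pass without the block (adjusted p = 0.53). At 12 h DFR had been at 64.9 and 73.6 CPM in WT and 66.6 and 60.8 CPM in zed1-D and LDOX at 59.3 and 75.4 CPM in WT and 50.8 and 67.9 CPM in zed1-D, where neither gene passed (0.25 and 0.12). The change of the difference from 12 to 48 h was -3.66 ± 0.18 SE, adjusted p = 4.9e-18 for DFR and -3.58 ± 0.16 SE, adjusted p = 7.5e-19 for LDOX. In all, 6 of the 14 genes had a lower difference at 48 h than at 12 h, 4 of them without the block.

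Cold-response genes were lower in zed1-D as well. Of the list, 8 of 9 were lower and 1 was higher, with a median of -0.72, and 3 were lower without the block. COR15A, which protects chloroplast membranes in frost, was at 139 and 156 CPM in WT and 18.0 and 24.6 CPM in zed1-D (-2.77 ± 0.098 SE, adjusted p = 8.2e-23). KIN2 was at 329.9 and 240.4 CPM in WT and 44.2 and 48.7 CPM in zed1-D (-2.56 ± 0.098 SE, adjusted p = 7e-22). COR47 had a log2 fold change of -1.29 ± 0.12, a call lost without the block (adjusted p = 0.25). RD29A, which answers to both cold and abscisic acid and was counted in another list, was at 46.0 and 62.4 CPM in WT and 11.4 and 16.5 CPM in zed1-D (-1.96 ± 0.12 SE, adjusted p = 3e-16). COR15A has a near copy beside it, COR15B, and reads could have been split between them. The median log2 fold change of the list was -0.35 at 0 h and -0.23 at 12 h. In WT, COR15A went from 466 and 578 CPM at 0 h to 42.9 and 49.7 CPM after 12 h and back to 139 and 156 CPM after 48 h at 28 °C. In zed1-D it went from 315 and 385 CPM to 33.9 and 37.6 CPM and then to 18.0 and 24.6 CPM. The difference changed from 12 to 48 h by -2.39 ± 0.14 SE, adjusted p = 1.8e-15. Promoters of both groups of lowered genes are shown for the G box, CACGTG, which reads the same on both strands and is a known binding site of bZIP and bHLH factors. DFR was read from chr5:17166033-17166282 on the minus strand and COR15A from chr2:17712331-17712580 on the minus strand of TAIR10.1, again 250 bases before the start with the match in capitals.
DFR promoter: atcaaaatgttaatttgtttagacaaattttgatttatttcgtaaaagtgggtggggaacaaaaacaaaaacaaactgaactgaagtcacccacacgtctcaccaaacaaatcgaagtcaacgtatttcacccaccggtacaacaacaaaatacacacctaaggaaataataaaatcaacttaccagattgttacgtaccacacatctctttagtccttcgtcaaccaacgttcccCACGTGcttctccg
COR15A promoter: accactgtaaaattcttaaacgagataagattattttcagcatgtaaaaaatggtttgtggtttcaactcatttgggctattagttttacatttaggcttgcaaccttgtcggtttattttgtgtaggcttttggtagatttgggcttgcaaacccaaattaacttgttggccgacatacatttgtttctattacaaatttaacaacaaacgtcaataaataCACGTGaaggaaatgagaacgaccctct
Each held 1 match, beginning at -14 in DFR and -28 in COR15A. Over the window from 250 before to 50 after the start, the G box stood in 6 of 14 promoters of the flavonoid list and 3 of 9 of the cold list, against 8.83% of all 19097 promoters. It also stood in 8 of 13 promoters of the endoplasmic reticulum list, whose genes were higher, and in 6 of 11 of the clock list, which moved both ways. Among genes lower by a log2 fold change of at least 1 the share was 9.68%, and among those higher by as much 8.39%. For the W box, TTGACC, the known site of WRKY factors, the shares were 14.3% of all promoters, 20.4% of those of genes higher by at least 1 and 11.5% of those of genes lower by at least 1.

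**Figure D4:**
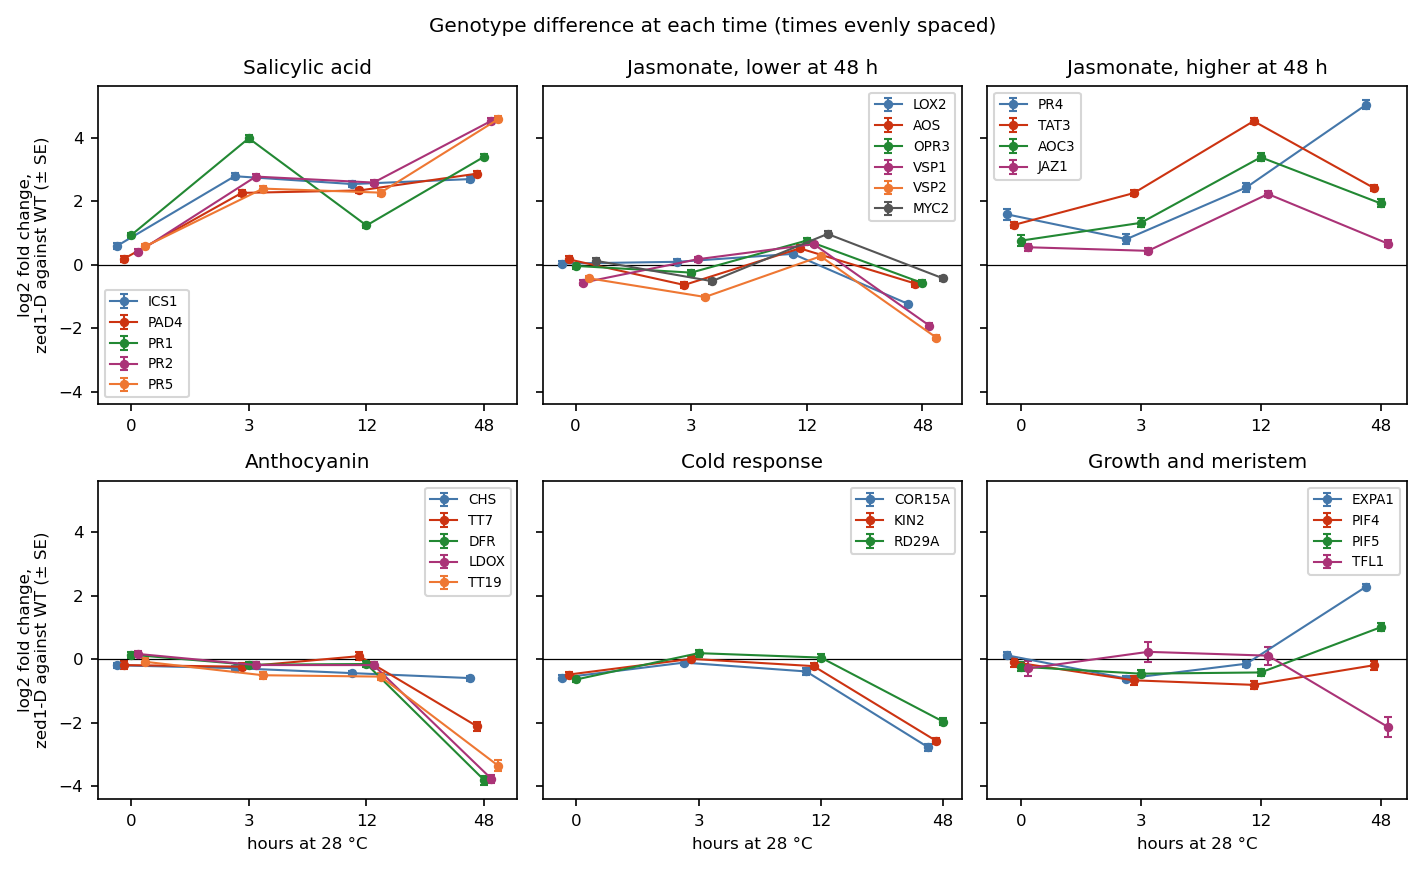
Log2 fold change of zed1-D against WT with its SE at 0, 3, 12 and 48 h (times evenly spaced) for genes of 6 groups. The salicylic acid genes are above 2 at 48 h, the jasmonate panels part between 12 and 48 h, and DFR, LDOX, TT19, COR15A and KIN2 lie within 1 of zero up to 12 h and below -2 at 48 h.

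Genes tied to growth in warmth gave no common direction. Of 23, 6 were higher and 5 were lower, a share of 47.8% against 45.6% of all genes, and 3 and 1 without the block. PIF4, the factor that drives stem elongation in warmth, was at 21.2 and 17.8 CPM in WT and 18.2 and 15.9 CPM in zed1-D and did not pass (-0.18 ± 0.14 SE, adjusted p = 0.3). Its relative PIF5 was at 14.0 and 13.3 CPM in WT and 29.8 and 25.9 CPM in zed1-D (1.01 ± 0.13 SE, adjusted p = 3e-08). EXPA1, an expansin that loosens cell walls, was at 78.3 and 80.1 CPM in WT and 346 and 428 CPM in zed1-D (2.30 ± 0.084 SE, adjusted p = 2.4e-22). At 12 h it had been at 79.6 and 92.6 CPM in WT and 79.6 and 78.5 CPM in zed1-D. Of 11 clock genes, 3 were higher and 2 were lower, also without the block, a share of 45.5% against 45.6% of all genes. The morning genes LHY, at 10.4 and 8.33 CPM in WT and 40.2 and 35.3 CPM in zed1-D, and CCA1, at 3.2 and 3.23 CPM in WT and 12.5 and 8.15 CPM in zed1-D, had log2 fold changes of 2.04 ± 0.15 and 1.58 ± 0.25, and RVE8, a related factor, of 1.62 ± 0.19. FKF1, of the evening, differed by -1.05 ± 0.15. The clock hour of sampling is not given in the labels. Of 17 iron genes, 8 were lower and 3 higher, and 3 and 1 without the block. BHLH100, a factor induced by iron shortage, was at 85.7 and 125 CPM in WT and 43.3 and 50.4 CPM in zed1-D (-1.18 ± 0.11 SE, adjusted p = 1.5e-11; adjusted p = 0.053 without the block). At 3 h it had been the other way round, at 6.2 and 10.7 CPM in WT and 23.9 and 29.0 CPM in zed1-D. NAS4, which makes the iron chelator nicotianamine, had a log2 fold change of -1.0 ± 0.12, and the ferritin FER1 of 0.60 ± 0.12.

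Genes of the labelled tissue, the inflorescence and its young leaves, were read in all 4 libraries, and those of flowers, meristems and dividing cells that passed were lower in zed1-D. Of 10 genes of the tapetum, the anther layer that feeds pollen, 9 were lower (median -1.20; 6 without the block), and their summed level was 123 and 224 CPM in the WT libraries and 67.8 and 116 CPM in the zed1-D libraries. Much of that sum was 1 gene, GRP17, a pollen coat protein named after its values were seen, which gave 333 of 623 and 1885 of 2643 tapetum reads in WT and 206 of 360 and 1010 of 1321 in zed1-D. LAP5, an enzyme of the pollen wall, was at 6.99 and 6.89 CPM in WT and 3.8 and 1.95 CPM in zed1-D (-1.43 ± 0.26 SE, adjusted p = 3e-05), and its partner LAP6 had a log2 fold change of -0.82 ± 0.17. Of 7 pollen genes 2 were lower (1 without the block) and none was higher, a share of 28.6% against 45.6% of all genes called and 23.5% lower. None of the 11 seed genes had reads enough to be tested. Of 18 floral identity genes 6 were lower and none was higher (1 lower without the block). This share of 33.3% stood against 45.6% of all genes called and 23.5% lower. AP1, which marks floral meristems and sepals, was at 19.4 and 24.3 CPM in WT and 11.0 and 14.6 CPM in zed1-D (-0.76 ± 0.15 SE, adjusted p = 9.3e-05). AP3 differed by -0.78 ± 0.15, which did not pass without the block (adjusted p = 0.24). Of 10 meristem genes 5 were lower and none was higher, a share of 50% (4 lower without the block). TFL1, which keeps the shoot tip from flowering, was at 7.19 and 6.04 CPM in WT and 2.28 and 1.06 CPM in zed1-D (-2.13 ± 0.30 SE, adjusted p = 3.9e-07). STM, which maintains stem cells, was at 63.5 and 44.2 CPM in WT and 37.8 and 27.6 CPM in zed1-D (-0.71 ± 0.1 SE, adjusted p = 3.4e-07, and adjusted p = 0.15 without the block). Of 21 cell division genes 12 were lower and none was higher (median -0.43), but 3 without the block. The mitotic kinase CDKB2;1 was at 49.1 and 41.2 CPM in WT and 27.7 and 23.6 CPM in zed1-D (-0.81 ± 0.11 SE, adjusted p = 9.7e-08). Of 16 replication genes 8 were lower and none was higher, a share of 50% against 45.6% of all genes called and 23.5% lower. Without the block 1 was lower, and 6.24% of all genes were. MCM2, a subunit of the replicative helicase, differed by -0.68 ± 0.13, a call lost without the block (adjusted p = 0.079) and without zed1-D replicate 2 (adjusted p = 0.081).

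Leaf photosynthesis genes were mostly lower. Of 36, 29 were lower and 4 were higher (median -0.50), but 4 and 0 without the block, and the summed level was 106905 and 74103 CPM in the WT libraries and 71679 and 65356 CPM in the zed1-D libraries. PSAO, a subunit of photosystem I, was at 1003 and 1009 CPM in WT and 511 and 658 CPM in zed1-D (-0.79 ± 0.078 SE, adjusted p = 1.6e-10). LHCB1.1 went the other way at 49.7 and 23.5 CPM in WT and 104 and 69.2 CPM in zed1-D (1.33 ± 0.11 SE, adjusted p = 9.6e-13; adjusted p = 0.21 without the block) and is one of several near-identical antenna genes. The summed level of phloem genes was 464 and 347 CPM in the WT libraries and 474 and 397 CPM in the zed1-D libraries. Common reference genes were not level either. Of 12, 2 were higher and 5 were lower, a share of 58.3% against 45.6% of all genes. ACT2, ACT8 and UBQ10 had log2 fold changes of -0.64 ± 0.071, -0.82 ± 0.079 and 0.67 ± 0.074, and none of the 12 in the list passed without the block. The part of the tissue's makeup in the differences of the other gene groups was not tested.

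The largest differences were ranked by size among called genes averaging 2 or more in log2 CPM. Only genes with the same sign in both replicate pairs and no overlap between groups were ranked. The 10 largest increases were Prx37, TH8, AIG1, OSM34, DIN2, PDF1.3, CHIB, KTI1, ARD3 and AGP5. Prx37, a secreted peroxidase, was at 0.799 and 0.425 CPM in WT and 57.1 and 41.5 CPM in zed1-D (6.39 ± 0.24 SE, adjusted p = 4.4e-22). TH8, a thioredoxin, was at 1.4 and 1.7 CPM in WT and 81.8 and 104 CPM in zed1-D (5.91 ± 0.17 SE, adjusted p = 3.4e-25). At 12 h it had been at 1.51 and 1.6 CPM in WT and 4.04 and 8.0 CPM in zed1-D. OSM34, an osmotin, was at 1.6 and 1.45 CPM in WT and 87.7 and 70.1 CPM in zed1-D (5.63 ± 0.19 SE, adjusted p = 3.6e-23). AIG1, a gene first found as induced by a bacterial effector, was at 0 and 2.64 CPM in WT and 76.7 and 94.9 CPM in zed1-D. ARD3, an enzyme of methionine salvage, was at 8.39 and 14.2 CPM in WT and 269.9 and 488 CPM in zed1-D (5.06 ± 0.11 SE, adjusted p = 6.6e-29). KTI1, a trypsin inhibitor, had a log2 fold change of 5.13 ± 0.19. The 10 largest decreases were AT5G37940, AT5MAT, AT3G46490, DR4, UF3GT, DFR, LDOX, AT4G21650, UMAMIT36 and TT19, of which 5 are anthocyanin genes. AT5G37940, annotated as a zinc-binding dehydrogenase, was at 46.4 and 50.2 CPM in WT and 0 and 0.266 CPM in zed1-D, 822 reads over WT against 3 over zed1-D, a ratio of 271 with a 95% counting interval from 92.3 to 1315. At 12 h it had been at 11.4 and 13.3 CPM in WT and 12.8 and 13.7 CPM in zed1-D, where it did not pass (0.74). AT4G21650, annotated as a subtilase, was at 387 and 302 CPM in WT and 34.0 and 23.5 CPM in zed1-D (-3.61 ± 0.095 SE, adjusted p = 2e-26). DR4, a protein of the Kunitz inhibitor type, had a log2 fold change of -3.94 ± 0.16.

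The genotype difference at 48 h was set against those at 0 and 12 h with a test of the change itself. Against 0 h, the difference was higher for 2548 genes (13.2%) and lower for 2710 (14%). Against 12 h it was higher for 1393 (7.21%) and lower for 2210 (11.4%). The excess of lower over higher changes from 12 h did not hold under every setting: after thinning to the smallest library 1272 genes were higher and 1239 lower, with no filter 1906 and 1750, with the compared groups only 1369 and 1213, without WT replicate 1 of 48 h 1557 and 1405, and without WT replicate 1 of 12 h 1437 and 1346. Without the block 713 and 283 genes passed, and without WT replicate 2 of 48 h 3498 and 2167. Against 0 h, 16 of 17 salicylic acid genes, 23 of 32 cysteine-rich receptor-like kinases and 17 of 23 pattern-triggered genes had a higher difference at 48 h, and 8, 16 and 8 without the block. Against 12 h, the salicylic acid outputs moved both ways, 6 of 15 with a higher 5 with a lower difference, and 1 and 0 without the block. PR1, PR2 and PR5 were among the higher ones, PR1 by 2.16 ± 0.11 SE, adjusted p = 6.6e-17. Without the block the change passed for PR2 but not for PR1 (adjusted p = 0.088) or PR5 (adjusted p = 0.41). PR1 at 12 h had been at 134 and 195 CPM in WT and 314 and 455 CPM in zed1-D, so that the WT libraries stood lower at 48 h than at 12 h, while the zed1-D libraries of the 2 times overlapped. Of the camalexin genes, 5 of 8 had a lower difference at 48 h (2 without the block), with CYP71A13 at 225 and 299 CPM in zed1-D at 12 h against 12.0 and 19.5 CPM at 48 h.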

How the data were processed

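Per the labels' protocols, mRNA was taken from the tissue on oligo-dT beads. The authors deposited for each library the number of uniquely assigned reads of each gene, as raw counts, beside RPKM values, which were not tested here, per the file headers. Genome build TAIR10 is named in the submitters' processing notes; no source used here gives the aligner, the counter, the annotation or the strand setting, so antisense overlaps and near-identical copies could not be separated. A gene missing from a library's table was taken as 0. The 16 libraries held 4742719 to 11393619 counted reads, and intervals cover counting error only.

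Genes were kept by edgeR's filterByExpr (19312 of 25444) and fitted with edgeR 4.0.16 in R 4.3.3, with TMM scaling, 8 group means and the replicate number as a block, by quasi-likelihood tests with Benjamini-Hochberg adjustment. Pairing by number was checked by the correlation, across genes, of deviations from the group means, which was positive in all 28 pairs of groups (0.53 to 0.71; 0.53 at 48 h). Replicate 1 was the shallower library in every group, so any difference common to all replicate 1 libraries, depth included, would also give positive values. The check cannot show that same-numbered libraries are biological pairs, and the labels do not say what the numbers share. DESeq2 1.42.0, RLE size factors, no filter, thinning to the smallest library, a fit of the compared groups only and leaving out single libraries were the alternatives. Scripts were tested on simulated data. The groups, gene lists and tests were chosen with earlier results of these data known. The first named genes were the 10 largest differences each way among called genes averaging 2 or more in log2 CPM. These had the same sign in both pairs and no overlap between groups. Next came up to 6 members of each list by smallest p. Then came the 5 smallest p each way of each test of change with time and the steps of ordered pathways. ZED1, ZAR1, PBL2, SNC1, PR1 and PIF4 were always named. Others are said to be named after their values were seen. Promoter sequences came from RefSeq TAIR10.1 by its own annotation, matched by locus for 19097 tested genes.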

Additional observations from a re-analysis of the deposited data

Results flagged for a closer look

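The genotype difference changed with time, by a test of the change itself, for 5258 genes between 0 and 48 h and for 3603 genes between 12 and 48 h. The 5 genes with the smallest p in each direction are given here for each pair of times, as the change in log2 fold change, zed1-D against WT, at 48 h relative to the earlier time.

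Against 0 h, the difference was larger at 48 h by 4.13 for PR2, by 4.01 for PR5, by 4.71 for ARD3, by 3.31 for AT5G10760, annotated as an aspartyl protease, and by 2.71 for SOBIR1. Without the block the PR5 change did not pass (adjusted p = 0.055). At 0 h PR2 was at 129 and 118 CPM in WT and 169 and 156 CPM in zed1-D, ARD3 at 41.6 and 60.6 CPM in WT and 44.5 and 85.6 CPM in zed1-D and SOBIR1 at 169.7 and 146 CPM in WT and 166 and 137 CPM in zed1-D, so the genotypes began close together for these 3 genes. The change was -3.93 for LDOX, -3.95 for DFR, -3.34 for the subtilase gene AT4G21650 and -3.07 for AT1G14250, annotated as a nucleoside phosphatase. For AT5G37940 the fitted change was -7.57; it depends on the prior count, since zed1-D held 3 reads at 48 h, and is no bound.

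Against 12 h, the difference was larger at 48 h by 3.18 for ARD3, by 2.43 for EXPA1, by 2.16 for PR1, by 2.32 for PR5 and by 2.75 for GASA6, a small peptide of the gibberellin-regulated family. Without the block the changes of PR1 (adjusted p = 0.088) and PR5 (adjusted p = 0.41) did not pass. GASA6 was at 59.7 and 37.5 CPM in WT and 22.4 and 14.5 CPM in zed1-D at 12 h and at 58.7 and 37.7 CPM in WT and 138 and 105 CPM in zed1-D at 48 h. The change was -2.56 for VSP1 and -2.56 for VSP2, which are near copies, -3.15 for CSLA01, a cell wall mannan synthase family member, -4.18 for PGL5, a lactonase of sugar metabolism, and -4.61 for FAMT, a methyltransferase. FAMT was at 10.6 and 8.78 CPM in WT and 137 and 141 CPM in zed1-D at 12 h and at 15.2 and 17.7 CPM in WT and 10.2 and 10.2 CPM in zed1-D at 48 h. PGL5 was at 38.2 and 25.8 CPM in WT and 340.1 and 214 CPM in zed1-D at 12 h and at 91.1 and 49.6 CPM in WT and 35.5 and 27.8 CPM in zed1-D at 48 h. Both genes were far higher in zed1-D at 12 h, and lower at 48 h, where the PGL5 call was lost without the block (adjusted p = 0.065) and the FAMT call without WT replicate 2 (adjusted p = 0.055).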

How the results depend on the processing

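Without the replicate block 1607 genes were higher, 1205 lower, and 713 and 283 passed the tests of change from 0 h and from 12 h. With the compared groups only, 2894 genes were lower with the block; without it 954 were higher, 368 lower, and 258 and 81 changed. DESeq2 called 3263 genes higher and 3435 lower, and 2138 for the change from 12 h. Adding a minimum log2 fold change of 1 left 1412 higher and 911 lower. Leaving out 1 library gave 2841 to 4534 genes higher, 3041 to 4752 lower, 3498 to 6341 for the change from 0 h and 2167 to 4795 for that from 12 h. The lowest of each came without WT replicate 2 of 48 h; without replicate 2 of 12 h, the change from 12 h had 2243 genes for WT and 2270 for zed1-D. The lone sample then left in a group is assumed to vary like those of the other groups. RLE size factors and no filter kept each count within 1.5 times, as did thinning except for genes with a lower difference at 48 h than at 12 h, 1239 against 2210. The cause of the remaining differences was not tested.

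No gene called both with and without the change of setting differed in sign under any of the settings at 48 h. Of the genes named, 137 were followed under each setting. PDF1.2B, PDF1.3 and GRP17 were not among them. Of the 137, 20 lost the call without the block, and leaving out 1 library lost that of CYP79B3, CYP71A13, FAMT, SNC1 or MCM2. SAG12 passed without zed1-D replicate 1 of 48 h. ZAR1 passed with no filter (0.26, adjusted p = 0.016) and without zed1-D replicate 2 of 48 h (0.47, adjusted p = 3.6e-05). Without WT replicate 2 of 48 h the log2 fold change was 5.05 for CYP71A12, 2.48 for PAD3 and 3.26 for WRKY51. Before TMM scaling, 1 CPM at these depths is about 5 to 11 reads.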

Other observations

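Of 11 cytokinin genes 6 were higher and 2 were lower (4 and 1 without the block), with a median log2 fold change of 0.73. ARR5, a response regulator that cytokinin induces, was at 4.6 and 13.0 CPM in WT and 21.6 and 41.4 CPM in zed1-D (1.79 ± 0.14 SE, adjusted p = 7.6e-13; adjusted p = 0.093 without the block), and AHP4, a signal carrier of the same pathway, had a log2 fold change of -1.40 ± 0.23. Of 17 ethylene genes 9 were higher and 1 was lower (5 and 0 without the block), with the receptor gene ETR2 at 8.59 and 8.5 CPM in WT and 15.9 and 17.0 CPM in zed1-D (0.97 ± 0.16 SE, adjusted p = 7.7e-06). Of 11 auxin genes 1 was higher and 3 were lower, and none passed without the block. Of 17 abscisic acid genes 2 were higher and 4 were lower (1 and 2 without the block), a share below that of all genes.

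Glutathione transferases, which detoxify reactive compounds, split: of 30 tested, 12 were higher and 8 were lower (9 and 4 without the block). GSTF7 was at 12.0 and 10.7 CPM in WT and 103 and 79.4 CPM in zed1-D (2.96 ± 0.11 SE, adjusted p = 6.1e-22), while GSTU20 was at 436 and 456 CPM in WT and 146 and 146 CPM in zed1-D (-1.62 ± 0.072 SE, adjusted p = 8.6e-20). Of 7 trichome genes 1 was higher and 3 were lower (0 and 2 without the block), with GL2, a regulator of leaf hairs, at 20.2 and 10.1 CPM in WT and 9.3 and 6.2 CPM in zed1-D (-0.89 ± 0.19 SE, adjusted p = 0.00016; adjusted p = 0.32 without the block). Of 14 genes of chlorophyll synthesis 3 were higher and 6 were lower, and none passed without the block. Of 7 phloem genes 2 were higher and 1 was lower (0 and 1 without the block).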
